A study of Mus musculus with 15 samples.

Results

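The 10 enteroendocrine genes described were Cck, Gcg, Gip, Sst, Nts, Pyy, Sct, Tac1, Chga and Tph1, followed in the small-intestinal epithelium of mice given RANKL. They were chosen by name as gut hormones and peptides, chromogranin A and the enzyme of serotonin synthesis, and all 10 of 10 were measured among 19938 genes. The epithelium came from BALB/c mice, wild-type and 10 weeks of age, after 1, 2, 3 or 4 days of GST-RANKL injected into the peritoneum, and from control mice, whose treatment the labels do not give. Each of the 5 groups has 3 arrays. The labels name no control that received GST or injections without RANKL, so an effect of the carrier or of injection cannot be told apart from that of RANKL. Whether the replicates are different mice is not stated, and the spread behind each p-value may therefore be technical. The epithelium was peeled after EDTA and holds all of its cell types, of which enteroendocrine cells are a small part.

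Enteroendocrine cells are rare secretory cells of the gut epithelium that store peptide hormones or serotonin in granules and release them on contact with food. They arise from crypt progenitors through a transient step marked by the transcription factor Neurog3, followed by factors such as Neurod1, Rfx6, Isl1 and Pax6. Individual cells often make more than 1 hormone, and the repertoire changes along the length of the gut and from crypt to villus. RANKL is a TNF-family cytokine that binds RANK and activates NF-κB in target cells. In the gut it is known as the signal that drives the differentiation of M cells, which carry particles from the lumen to lymphoid tissue. The arrays show RNA levels over the whole sheet, so fewer cells of a type and less RNA per cell cannot be told apart in any result below.

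The promoters of 3 members are printed because Cck and Gcg were the members that passed the test and Sst, which did not pass it, is the classic cAMP-responsive hormone gene. Each is RefSeq sequence of build GRCm38.p6, read 5′ to 3′ on the gene's strand, from 250 bases before the start of transcription to 50 after it. Capitals mark E-boxes (CANNTG, the site class bound by NeuroD1 and other basic helix-loop-helix factors), TATAAA on the gene's strand, and the cAMP response element TGACGTCA. CAGATG, the form of E-box preferred by NeuroD1, is contained in CANNTG. The E-box, its CAGATG form and the cAMP response element were searched on both strands.
Cck (chr9:121495645-121495944, minus strand): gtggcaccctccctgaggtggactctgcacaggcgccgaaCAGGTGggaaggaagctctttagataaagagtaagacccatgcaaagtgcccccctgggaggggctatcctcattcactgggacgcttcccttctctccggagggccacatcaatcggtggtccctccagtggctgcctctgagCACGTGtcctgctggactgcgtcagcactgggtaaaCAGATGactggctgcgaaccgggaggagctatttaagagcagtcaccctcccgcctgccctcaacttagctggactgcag
Gcg (chr2:62483604-62483903, minus strand): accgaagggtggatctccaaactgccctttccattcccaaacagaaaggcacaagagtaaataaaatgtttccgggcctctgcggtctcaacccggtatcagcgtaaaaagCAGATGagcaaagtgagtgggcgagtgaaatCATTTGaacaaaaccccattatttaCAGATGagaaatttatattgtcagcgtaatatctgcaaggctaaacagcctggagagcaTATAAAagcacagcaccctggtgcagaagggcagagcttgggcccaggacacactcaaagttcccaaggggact
Sst (chr16:23890795-23891094, minus strand): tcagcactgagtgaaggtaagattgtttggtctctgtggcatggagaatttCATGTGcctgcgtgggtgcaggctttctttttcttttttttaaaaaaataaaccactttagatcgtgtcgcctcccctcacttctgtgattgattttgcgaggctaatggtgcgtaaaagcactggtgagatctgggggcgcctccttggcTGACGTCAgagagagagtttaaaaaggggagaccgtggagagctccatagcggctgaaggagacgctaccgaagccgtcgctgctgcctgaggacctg

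Cck and Gcg each hold 3 E-boxes in these windows, and Sst holds 1. In Cck the CAGATG form lies at position -30 from the start of transcription. In Gcg it occurs at -139 and at -83, and TATAAA lies at -24. The cAMP response element of Sst lies at -48 and is the only full TGACGTCA found among the hormone genes. All 10 genes were matched to the RefSeq table, which gives 12 promoter windows for them. CANNTG occurred in 11 of these 12 windows, against 72.3% of all 32851 promoter windows of this length. The Pyy windows overlap, and the CAAGTG at -92 in one and at -36 in the other is the same site, counted for both. CAGATG occurred in 4 of 12, against 17.2% of all windows, and TGACGTCA in 1 of 12, against 1.79%. The half-site TGACG, searched on both strands, occurred in 7 of 12, against 20.8%. Cck holds it at -47 and Chga at -44. TATAAA on the gene's strand occurred in 3 of 12, against 8.32%. An NF-κB motif was found in 0 of 12 hormone windows, against 4.51% of all. A match describes letters only and says nothing about binding.

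The median deposited intensity per array ran from 147 to 167. RANKL day 1 replicate 2 stood apart on the first principal component and had the highest median and the narrowest spread of values. Some results that rest on it are therefore given with and without it. Where nothing is said, it is included. The response to RANKL was present in the RANKL arrays: Spib, the transcription factor of M cells, lay between 8.77 and 9.58 on day 4, against 6.50 to 6.81 in control, on the log2 intensity scale used throughout. Gp2, the bacterial receptor of mature M cells, lay between 8.95 and 10.17 on day 4, against 5.94 to 6.22 in control. Vil1, the villin of the enterocyte brush border, lay between 12.33 and 12.80 on all 15 arrays. The 1027 odorant receptor genes measured, read as a guide to low signal, had a median of 6.21 and a 95th percentile of 7.28. A gene was called when its limma p-value, adjusted over all 19938 genes, was under 0.05.

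On day 4 of RANKL, Cck and Gcg were higher than in control, and a further 3 members (Sst, Chga and Tph1) lay wholly above control without passing the test. On days 1 and 2 no member passed, and 3 lay wholly below control on each day: Gcg, Pyy and Sct. On day 4, 2 of the 10 genes were called higher and 0 lower by limma, against a background of 0.818% of all genes called higher and 0.0903% called lower. On day 3, 1 of 10 was called higher, against 1.72% of all genes, and 2 of 10 were with the replicate number as a block. On days 1 and 2, limma called 0 of 10, against backgrounds of 3.94% and 2.57% of all genes. At an unadjusted p under 0.05, 4 members differed on day 3 and 6 on day 4, against 16.2% and 9.66% of all genes. By the same measure 1 member differed on day 1 and 3 on day 2, all lower, against 14.9% and 11.9% of all genes in either direction. The unmoderated test also called 0 members on both days. The 4 comparisons share their control arrays.

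The count of members whose 3 RANKL arrays lay above all 3 control arrays was 0 on day 1, 0 on day 2, 2 on day 3 and 5 on day 4. The same held for 6.08%, 8.09%, 12.3% and 12.1% of all genes. Members lying wholly below control numbered 3, 3, 1 and 0, against 8.51%, 9.44%, 9.90% and 6.16% of all genes. The median log2 change of the 10 members was -0.14 on day 1, -0.13 on day 2, -0.05 on day 3 and 0.40 on day 4. Over all genes the median change was -0.01, -0.02, -0.01 and 0.01. The mean was highest on day 4 for 9 of the 10 genes, and Tac1 was the exception.

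**Figure D1:**
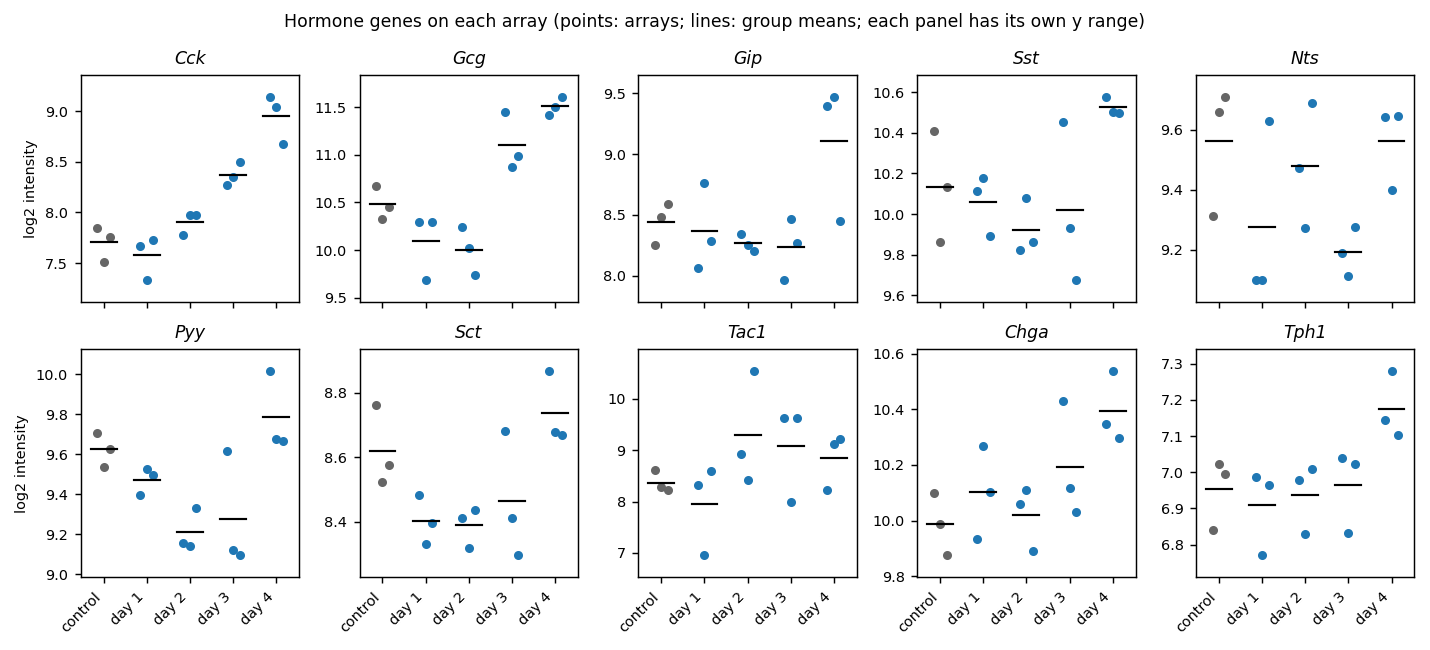
Log2 intensity of each of the 10 hormone genes on each array, for control and RANKL days 1 to 4; points are arrays, lines are group means of 3 arrays, and each panel has its own y range. Cck climbed from day 1 to day 4, Gcg lay below control on days 1 and 2 and above it on days 3 and 4, and Tac1 was scattered within groups.

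Cck encodes cholecystokinin, the hormone of I cells that contracts the gallbladder and stimulates pancreatic enzyme secretion. Its probe set (10597817, chromosome 9) read 7.67, 7.33 and 7.73 on day 1, 7.77, 7.97 and 7.97 on day 2, 8.27, 8.35 and 8.50 on day 3, and 9.14, 9.04 and 8.67 on day 4, against 7.84, 7.52 and 7.76 in control. Day 1 overlapped control, each later day lay wholly above the day before it, and the day 3 and day 4 arrays lay wholly above control. Cck rose by 0.67 ± 0.14 (SE, n = 3 arrays each) on day 3, with a limma adjusted p of 0.0179. On day 4 it rose by 1.25 ± 0.14 (SE), 2.37-fold, with a limma adjusted p of 0.000305. The changes on day 1 and day 2 were -0.13 and 0.20, and neither passed the test. Without RANKL day 1 replicate 2, whose Cck value was the lowest of its group, the day 1 change was -0.01.

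The day 4 rise of Cck passed under every alternative tried. The day 3 rise did not. Its limma adjusted p was 0.0531 when replicate 2 of RANKL day 3 was left out and 0.0953 when replicate 3 was. Leaving out replicate 2 of control gave 0.0747, and leaving out its replicate 3 gave 0.0542. Between neighbouring days the log2 differences of Cck were 0.33 for day 2 against day 1, 0.47 for day 3 against day 2 and 0.58 for day 4 against day 3. None of these steps passed, with limma adjusted p-values of 0.594, 0.788 and 0.220. In those steps limma called 0.201%, 0% and 0.015% of all genes, and 5.41%, 9.05% and 8.50% of all genes lay wholly above the day before.

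Gcg encodes proglucagon, the precursor that L cells cleave to the incretin GLP-1 and to GLP-2, a growth factor of the gut mucosa. Its probe set (10483074, chromosome 2) read 10.30, 9.68 and 10.29 on day 1, 10.24, 10.02 and 9.74 on day 2, 11.45, 10.87 and 10.99 on day 3, and 11.42, 11.51 and 11.61 on day 4, against 10.67, 10.32 and 10.45 in control. All arrays of days 1 and 2 lay below control, and all arrays of days 3 and 4 lay above it. Gcg rose by 1.03 on day 4, with a 95% interval of 0.63 to 1.43, which is 2.04-fold, and the limma adjusted p was 0.0156. The changes on day 1 (-0.39), day 2 (-0.48) and day 3 (0.62) did not pass, with limma adjusted p-values of 0.349, 0.270 and 0.0956. With the replicate number as a block the day 3 change passed, with a limma adjusted p of 0.0477.

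Without RANKL day 1 replicate 2, the array that stood apart, the Gcg change on day 1 was -0.19, and the day 3 change passed with a limma adjusted p of 0.0314. The Gcg call on day 4 was lost when replicate 2 of RANKL day 4 was left out (limma adjusted p of 0.0654) and when its replicate 3 was (0.0683). It was also lost when replicate 2 of control was left out (0.0921) and when its replicate 3 was (0.0625). Median centring, used instead of quantile normalization, gave a change of 1.09 and an adjusted p of 0.0550.

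Gip encodes the incretin of K cells in the upper small intestine. Its values were 8.06, 8.76 and 8.28 on day 1, 8.35, 8.25 and 8.20 on day 2, 7.96, 8.47 and 8.27 on day 3, and 9.39, 9.47 and 8.45 on day 4, against 8.25, 8.48 and 8.59 in control. On day 4 replicates 1 and 2 lay above every control and replicate 3 lay within the control range. The day 4 change was 0.66 ± 0.24 (SE, limma adjusted p = 0.344). Without RANKL day 4 replicate 3 it was 0.99 with a limma adjusted p of 0.0264, so 1 array decided this call.

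Sst encodes somatostatin, the peptide of D cells that inhibits the release of other gut hormones. It read 10.58, 10.50 and 10.50 on day 4, against 10.41, 9.86 and 10.13 in control, and days 1 to 3 spanned 9.67 to 10.45. The day 4 arrays lay wholly above control, and the difference was 0.39 ± 0.17 (SE, limma adjusted p = 0.491). Nts encodes neurotensin, a peptide of N cells released by fat. It read 9.19, 9.11 and 9.27 on day 3, wholly below the control values of 9.31, 9.66 and 9.71, and the change of -0.37 had a limma adjusted p of 0.243. By day 4 Nts read 9.64, 9.40 and 9.65, and the change was 0.00 with a 95% interval of -0.33 to 0.33.

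Pyy encodes peptide YY, an L cell hormone that slows gut transit, and Sct encodes secretin, which stimulates bicarbonate secretion by the pancreas. Both lay wholly below control on days 1 and 2 and overlapped control on day 4. Pyy read 9.40, 9.53 and 9.50 on day 1, 9.16, 9.14 and 9.33 on day 2, 9.61, 9.12 and 9.10 on day 3, and 10.01, 9.68 and 9.67 on day 4, against 9.71, 9.54 and 9.63 in control. Its change was -0.41 on day 2 and -0.35 on day 3, with limma adjusted p-values of 0.142 and 0.197. Without RANKL day 3 replicate 1, whose Pyy value was the highest of its group, both passed as falls, with adjusted p-values of 0.0401 and 0.0257. The day 2 and control arrays are the same in that fit.

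Sct read 8.48, 8.33 and 8.40 on day 1, 8.41, 8.32 and 8.44 on day 2, 8.68, 8.41 and 8.30 on day 3, and 8.87, 8.68 and 8.67 on day 4, against 8.76, 8.52 and 8.57 in control. The changes were -0.22 on day 1, -0.23 on day 2 and 0.12 on day 4, with limma adjusted p-values of 0.328, 0.356 and 0.779. In Pyy and Gcg, which L cells share, the day 4 changes were 0.16 and 1.03, with 95% intervals of -0.12 to 0.44 and 0.63 to 1.43. The difference between those changes was not tested.

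Chga encodes chromogranin A, a granule protein found across enteroendocrine cells, and Tph1 encodes the enzyme that limits serotonin synthesis in enterochromaffin cells. Chga read 10.35, 10.54 and 10.30 on day 4, against 10.10, 9.99 and 9.88 in control, and the other days spanned 9.89 to 10.43. The day 4 arrays lay wholly above control by 0.41 ± 0.12 (SE), and the limma adjusted p was 0.173. Tph1 read 7.15, 7.28 and 7.10 on day 4, against 6.84, 7.02 and 7.00 in control. Here too the groups did not overlap, while the change was 0.22 ± 0.09 (SE) with a limma adjusted p of 0.419. The level of Tph1 was low: 6.77 to 7.28 over all arrays, against a 95th percentile of 7.28 for the odorant receptor genes.

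Tac1 encodes the precursor of substance P, made by a subset of enterochromaffin cells and by enteric neurons. It read 8.32, 6.96 and 8.60 on day 1, 8.93, 8.42 and 10.53 on day 2, 9.62, 7.98 and 9.63 on day 3, and 8.22, 9.12 and 9.22 on day 4, against 8.61, 8.28 and 8.22 in control. Every RANKL day overlapped control. Its SD pooled over groups, 0.80, was the largest among the 10 genes, and the 95% interval of its day 4 change ran from -0.73 to 1.71.

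**Figure D2:**
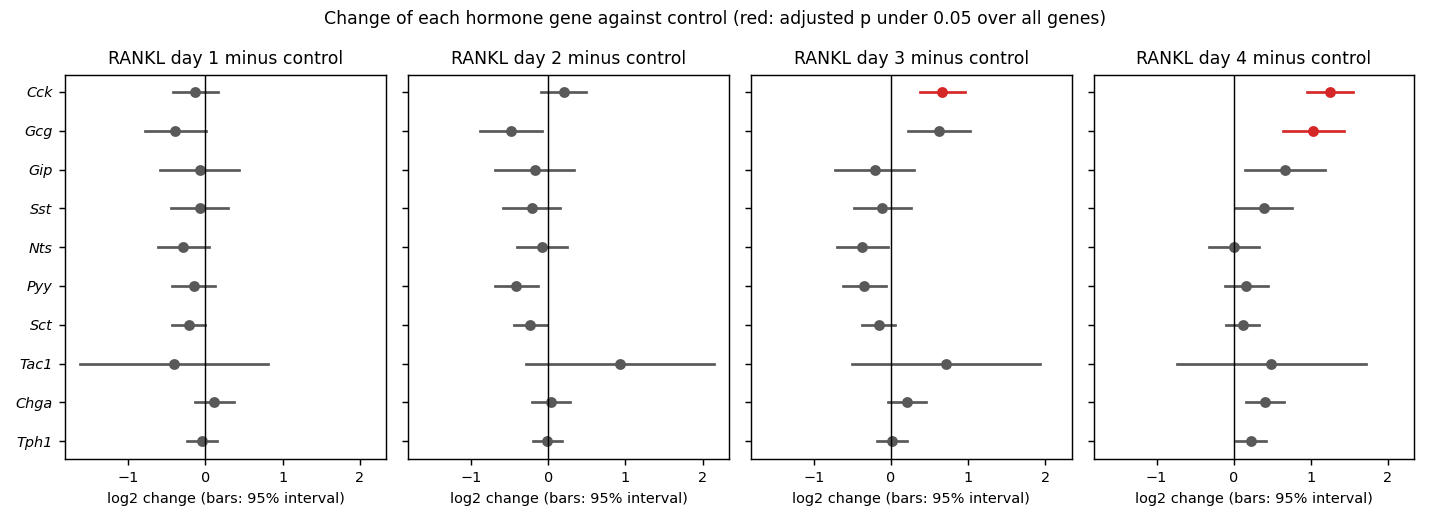
Log2 change of each hormone gene on each RANKL day minus control, with the 95% interval from the limma fit; red marks an adjusted p under 0.05 over all genes. Cck on day 3 and Cck and Gcg on day 4 are the red points, and the Tac1 intervals are the widest.

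The difference between the last and the first day was tested directly. The control arrays enter its size only through the shared quantile normalization, but they enter the pooled spread of the fit behind its SE and p. In this comparison Cck was higher on day 4 than on day 1 by 1.38 ± 0.14 (SE, limma adjusted p = 0.00043) and Gcg by 1.42 (limma adjusted p = 0.0025). These 2 of 10 genes were called higher, against 1.04% of all genes. For 7 of the 10 genes the 3 day 4 arrays lay wholly above the 3 day 1 arrays, against 12.8% of all genes. All 10 changes were above 0, as were 55.6% of those of all genes, and their median was 0.40, against 0.02 over all genes. Without RANKL day 1 replicate 2 the changes of Cck and Gcg were 1.28 and 1.21, and both still passed. In a fit of only those 2 groups neither passed, with limma adjusted p-values of 0.0890 for Cck and 0.0905 for Gcg. That fit leaves out RANKL days 2 and 3 as well as control, so fewer arrays set its spread. Its values stayed normalized together with the arrays left out.

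Over the 15 arrays, the 45 pairs of members had a median Pearson correlation of 0.47, and 39 of the 45 were above 0. With each group's mean taken out, the median was 0.15 and 28 were above 0. The highest within-group correlations were those of Pyy with Sct (0.83), Sst with Sct (0.73), Tac1 with Tph1 (0.68) and Sst with Pyy (0.68). Gcg and Gip had the lowest (-0.59). The arrays share a normalization and, before group means are taken out, their groups, so these values are descriptions.

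The genes whose levels over the 15 arrays were most like Cck were Vldlr, a lipoprotein receptor (r = 0.96), Plk2, a stress-responsive kinase (r = 0.94), and Dclk1, a kinase used as a marker of tuft cells (r = 0.92). With group means taken out, the correlation with Cck was 0.71 for Vldlr, 0.74 for Plk2 and -0.12 for Dclk1. For Gcg they were Elapor1 (r = 0.96), Fam183b (0.94) and Txndc5, a disulphide isomerase of the endoplasmic reticulum (0.94), with 0.89, 0.67 and 0.75 once group means were taken out.

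Genes of the secretory granule and of peptide processing numbered 18 measured. On day 4, 3 were called higher and 0 lower, against 0.818% and 0.0903% of all genes. Wholly above control lay 10 of 18, against 12.1% of all genes, and the median change was 0.24, against 0.01 over all genes. Scgn, a calcium-binding protein of neuroendocrine cells, rose by 0.73 ± 0.12 (SE, limma adjusted p = 0.00678). Chgb, the chromogranin B granule protein, rose by 0.50 (limma adjusted p = 0.0174), and Cpe, the carboxypeptidase that trims prohormones, by 0.47 (limma adjusted p = 0.0369). In control, Scgn (mean 6.19) and Cpe (6.82) lay below the odorant receptor 95th percentile of 7.28, while Chgb (8.88) lay above it. The day 4 means of Scgn, Cpe and Chgb were 6.92, 7.29 and 9.39. The Chgb call was lost when replicate 2 (0.0989) or 3 (0.0517) of RANKL day 4 was left out, and when replicate 1 (0.0584), 2 (0.0832) or 3 (0.0606) of control was. The Cpe call was lost in 11 of the 15 fits that left out an array, those without any array of RANKL day 3, RANKL day 4 or control and without RANKL day 2 replicates 1 and 2. Pcsk1, the convertase that cleaves many prohormones, differed by 0.10 on day 4 and did not pass. The count of 3 was 1 without any one of the 5 arrays whose removal ended the Chgb call.

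Scg5, the 7B2 chaperone of a prohormone convertase, was called on the earlier days and not on day 4. It rose by 0.89, 1.31 and 1.12 on days 1, 2 and 3, with limma adjusted p-values of 0.000518, 1.37e-05 and 9.1e-05. On day 4 its change was 0.42 (limma adjusted p = 0.142). Its mean was 8.57, 8.99, 8.80 and 8.11 on days 1 to 4, against 7.69 in control. The summed intensity of 8 M cell markers had medians of 8874, 14123, 12260 and 4831 on days 1 to 4, against 1821 in control. Which cells the Scg5 signal came from was not tested. Between day 4 and day 1, 6 of 18 granule genes were called higher, against 1.04% of all genes: Scgn (0.92), Cpe (0.82), Ptprn2 (0.78), Chgb (0.55), Gfra3 (0.54) and Scg3 (0.47). That count was 4 without RANKL day 1 replicate 2 and 0 in a fit of only the 2 groups. With the replicate block Rab3c was called higher as well (0.27, limma adjusted p = 0.0494). The mean of Scg3 was 5.60 on day 1 and 6.07 on day 4, below the odorant receptor 95th percentile of 7.28.

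Of 19 measured transcription factors of the enteroendocrine lineage, 1 was called higher on day 3 and 2 on day 4, against 1.72% and 0.818% of all genes, and none lower. Wholly above control lay 7 on day 3 and 9 on day 4, against 12.3% and 12.1% of all genes. The median changes were 0.16 and 0.20, against -0.01 and 0.01 over all genes. Rfx6, needed for K and L cell differentiation, rose by 0.73 on day 3 and 0.78 on day 4, with limma adjusted p-values of 0.00703 and 0.00687. Neurod1, which follows Neurog3 in endocrine differentiation, rose by 0.77 on day 4 (limma adjusted p = 0.0181), and that call was lost when replicate 1 (0.0714) or 2 (0.107) of RANKL day 4 was left out, and when replicate 1 (0.0897) or 3 (0.0529) of control was. The count of 2 on day 4 was 1 without replicate 1 or 2 of RANKL day 4 or without replicate 1 of control, and 4 without RANKL day 1 replicate 2. On day 3 the count of 1 was 3 without that same array. It was 2 when replicate 1 of RANKL day 1, replicate 3 of RANKL day 2 or replicate 3 of control was left out. Neurog3, the transient progenitor factor, differed by 0.52 on day 3 (limma adjusted p = 0.0519) and by 0.17 on day 4. Isl1 differed by 0.53 on day 4 (limma adjusted p = 0.0532). In control, Rfx6 (mean 6.49), Neurod1 (6.76), Neurog3 (6.61) and Isl1 (6.51) lay below the odorant receptor 95th percentile of 7.28. Their day 4 means were 7.27, 7.53, 6.78 and 7.04. Between day 4 and day 1, 3 of the 19 factors were called higher, against 1.04% of all genes. That count was 0 without RANKL day 1 replicate 2 or without replicate 1 or 2 of RANKL day 4. With the replicate block Nkx2-2 and St18 were called higher as well (limma adjusted p of 0.0328 and 0.0475).

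**Figure D3:**
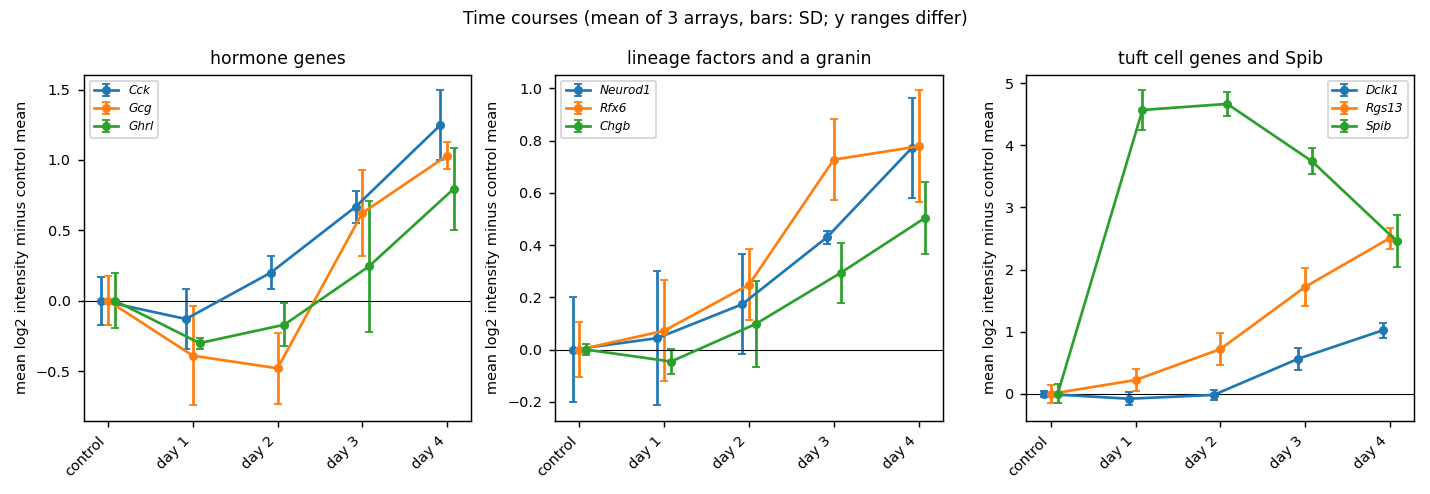
Mean log2 intensity minus the control mean for control and RANKL days 1 to 4, with SD over 3 arrays; y ranges differ between panels. Cck, Gcg, Ghrl, Neurod1, Rfx6 and Chgb were highest on day 4, like the tuft cell genes Dclk1 and Rgs13, while Spib was at its highest on days 1 and 2.

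Of 10 other gut peptides, limma called none on any day against control. At an unadjusted p under 0.05 there were 0 on days 1 and 2 and 2 on each of days 3 and 4. Over all genes the shares were 14.9%, 11.9%, 16.2% and 9.66% on days 1 to 4. Ghrl, which encodes ghrelin, lay wholly above control on day 4, by 0.80 (limma adjusted p = 0.0957, and 0.0166 with the replicate block). It was higher on day 4 than on day 1 by 1.10 (limma adjusted p = 0.0147). That call went when replicate 1 of RANKL day 1 (0.0506) or replicate 1 of RANKL day 4 (0.0877) was left out. Of 8 serotonin-handling genes, only Qdpr, which regenerates a cofactor of the hydroxylases, was called, lower on day 3 by -0.31 (limma adjusted p = 0.0482), and it kept that call in 4 of 15 fits that left out an array. Its change of -0.30 on day 2 had a limma adjusted p of 0.0617, and 0.0222 with the replicate block. Ddc, which completes serotonin synthesis, differed by 0.22 on day 4.

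Of 23 hormone receptors, Htr4, a serotonin receptor, was called higher on day 1 by 0.59 (limma adjusted p = 0.0100, and 0.0522 without control replicate 3), and no receptor was called on a later day without the replicate block. On day 2 the Htr4 change of 0.46 had a limma adjusted p of 0.0539, and 0.0442 with that block. Of 13 nutrient-sensing receptors and channels, limma called 0 on every day. On day 4, 4 of them had an unadjusted p under 0.05, against 9.66% of all genes. Ffar1, a receptor for long-chain fatty acids, differed by 0.43 on day 4. In control the 23 receptors summed to an intensity of 2322 to 2572 and the 13 sensors to 1568 to 1632. Tph1 alone, low as it was, had a mean intensity of 124 in control. Signal was thus low across these 2 lists as a whole, which limits what an absence of calls shows. Of 5 peptide-degrading enzymes, limma called 0 on every day, with 2 at an unadjusted p under 0.05 on day 4, against 9.66% of all genes. Among the 5 enzymes Dpp4, which inactivates GLP-1 and GIP, differed by -0.01 on day 4.

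**Figure D4:**
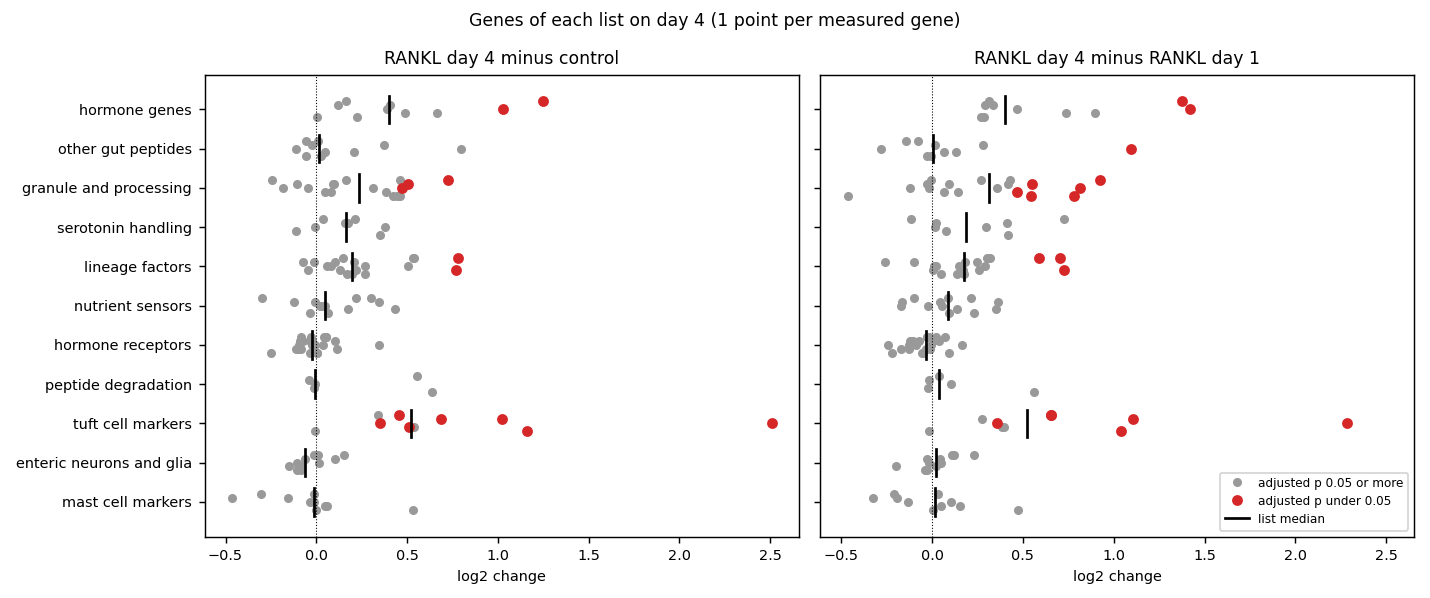
Log2 change of every measured gene of 11 lists for RANKL day 4 minus control (left) and RANKL day 4 minus RANKL day 1 (right); red marks an adjusted p under 0.05 over all genes, and black lines are list medians. The hormone, granule, lineage and tuft lists hold the red points against control, and the medians of the hormone and tuft lists are 0.40 and 0.52.

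Markers of other cell types were read beside these results. Of 10 tuft cell markers, 7 were called higher on day 4, against 0.818% of all genes, with a median change of 0.52, and their summed intensity was 1729 to 1999 on day 4, against 1051 to 1132 in control. Rgs13 and Dclk1 rose by 2.51 and 1.02, from control means of 5.30 and 6.69 to 7.80 and 7.71 on day 4. The count of 7 was 3 without replicate 2 or 3 of RANKL day 4 or replicate 3 of control. It was 4 without RANKL day 2 replicate 1 or replicate 1 or 2 of control. With the replicate block the tuft marker Hpgds was no longer called (limma adjusted p of 0.0494 without the block and 0.0709 with it). Of 9 stem cell markers, 2 were called higher on day 4, against 0.818% of all genes. The summed intensity of the 9 was 7446 to 8205 on day 4, against 4927 to 5874 in control. It was 6180 to 6517 on day 1, 4957 to 8689 on day 2 and 7841 to 8481 on day 3. The part of these cell types in the hormone results was not tested.

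Tac1, Nts and Sst are also made by enteric neurons. Of 11 markers of enteric neurons and glia, limma called 0 on day 4, with 0 at an unadjusted p under 0.05. Their summed intensity was 1207 to 1306 on day 4, against 1199 to 1358 in control. That sum is small for 11 genes, so low signal limits what it can show. The neuron marker Elavl4 had means of 5.75 in control and 5.77 on day 4, below the odorant receptor median of 6.21. Tph1 is also expressed by mast cells, whose 10 markers summed to 1630 to 1908 on day 4, against 1656 to 2287 in control, with 0 called that day and 1 at an unadjusted p under 0.05.

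Hormones differ along the gut, so markers of position were read as well. Of 7 genes of the distal small intestine, limma called 0 on day 4, with 2 at an unadjusted p under 0.05, and 3 lay wholly below control. Over all genes the shares at that p and wholly below control were 9.66% and 6.16%. The bile acid transporter Slc10a2 differed by -1.01 on day 4, with a limma adjusted p of 0.448. The summed intensity of the distal list was 19561 to 27093 on day 4, against 27695 to 30066 in control. It also lay wholly below control on day 1 (20885 to 26189), day 2 (20333 to 26281) and day 3 (14549 to 25744). The 7 proximal genes summed to 9002 to 15488 on day 4, against 9252 to 10886 in control. The part of gut position in the hormone results was not tested. Of 10 lymphocyte markers limma called 0 on day 4, with 4 at an unadjusted p under 0.05, and 4 lay wholly below control. The shares of all genes were again 9.66% and 6.16%.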

How the data were processed

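RNA of small-intestinal epithelial cells was measured on Affymetrix arrays, 3 for each of 5 groups. The authors deposited linear intensity values for 28853 probe sets per array. Per the submitters' processing notes the build was mm9, and how the intensities were summarised and normalized is not given in the sources used here. Intensities were taken to log2 without an offset and quantile normalized, since array medians ran from 7.20 to 7.38. Each gene was read from its highest-mean probe set with 1 symbol (21789 probe sets; 1621 carried several symbols and 5443 none). Each of the 10 hormone genes has 1 such probe set.

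All 15 arrays entered 1 limma fit with a mean for every group and no block, run with version 3.58.1 of limma in R 4.3.3. Two-sided p-values took the Benjamini-Hochberg adjustment across the whole gene table in each comparison, with 0.05 as the threshold for a call. All 10 hormone genes were described. From each pathway list up to 4 called genes with the largest change on a day were named, and from other lists up to 3 markers. For each called hormone gene the 3 genes with the highest Pearson correlation over the arrays were named, and Gp2 and Spib were read as a check of treatment. Neurog3, Isl1, Ghrl, Pcsk1, Ddc, Ffar1 and Dpp4 were named outside this rule, after their values were seen. The members and lists were chosen with earlier results of these data known. Promoter sequences came from RefSeq (GRCm38.p6). Same-numbered arrays deviated together (all 3 correlations over 0.1) between control and RANKL days 2 and 3 and between RANKL days 1 and 2, but not in the other 7 of 10 pairs of groups. Over all of them 19 of 30 same-numbered correlations passed 0.1 (median 0.14, against -0.07 for other numbers). Deviations from the mean of 3 arrays cancel within a group, so other-number values turn negative where same-number ones are positive. The -0.07 is therefore no separate evidence of pairing. An array correlated best with its own number in 36 of 60 comparisons, each a choice among 3 arrays. The labels do not say what a number marks, so the pairing is read from the data alone. Values with the number as a block are given beside those calls reported here that it changes. Precision is limited by the number of arrays. Neither scan dates nor detection flags entered the work. The method was tested on simulated data. Alternatives were other scalings, an added offset (16), a filter on the dimmest 40% of genes, means of probe sets, another prior, array weights, a replicate block, fits of 2 groups, unmoderated statistics and leaving out each array.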

Additional observations from a re-analysis of the deposited data

Results flagged for a closer look

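Cck and Gcg changed differently at the start and at the end of treatment, by the test of the difference itself. Cck was higher on RANKL day 4 than on RANKL day 1 by 1.38 on the log2 scale (limma adjusted p = 0.00043), with the 3 day 4 arrays at 9.14, 9.04 and 8.67, against 7.67, 7.33 and 7.73 on day 1. Gcg was higher by 1.42 (limma adjusted p = 0.0025), with 11.42, 11.51 and 11.61 on day 4, against 10.30, 9.68 and 10.29 on day 1. In both genes 3 of 3 day 4 arrays lay above all day 1 arrays. Against control, Gcg lay below on day 1 (-0.39) and above on day 4 (1.03).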

How the results depend on the processing

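The Cck rise on day 4 held under all 25 alternatives, with changes from 1.15 to 1.38. The count of hormone genes called on day 3 became 2 with array weights, 2 with the replicate block and 0 with the unmoderated test. On day 4 it became 1 with median centring and 1 with the unmoderated test. For day 4 against day 1 it became 5 with median centring, 5 with array weights and 0 in a fit of only the 2 groups. Leaving out 1 array at a time gave 0 to 1 on day 2, 0 to 2 on day 3, 1 to 2 on day 4, and 2 to 3 for day 4 against day 1. Of 1250 hormone-gene values under alternatives, 26 reversed direction and none of those passed the test, their largest size being 0.15. Reversals were Tac1 on day 1 with array weights (0.15), Chga on day 1 with median centring (-0.013), Tph1 on day 1 as deposited (0.0094), Tph1 on day 3 as deposited (-0.031), with median centring (-0.012) and with array weights (-0.0030), and Nts on day 4 with array weights (-0.060). Leaving out an array gave, on day 1, ranges of -0.28 to 0.080 for Gip, -0.21 to 0.062 for Sst, -0.73 to 0.094 for Tac1 and -0.10 to 0.024 for Tph1. On day 2 they were -0.21 to 0.020 for Nts, -0.022 to 0.098 for Chga and -0.071 to 0.041 for Tph1. On day 3 they were -0.33 to 0.058 for Sst and -0.044 to 0.079 for Tph1, and on day 4 -0.12 to 0.083 for Nts.

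Counts over all genes, which set the background, were 785, 513, 590 and 181 on days 1 to 4. On day 1 the count was 480 with median centring, where 37.3% of calls were higher in place of 50.7%, and 269 with only the 2 groups. On day 2 it was 311 with median centring, 843 with array weights and 320 with the unmoderated test. On day 3 it was 378 as deposited, 257 with median centring, 1137 with array weights and 324 with the unmoderated test. On day 4 it was 287 with array weights and 107 with the unmoderated test. Leaving out an array gave 445 to 1002, 283 to 717, 236 to 1188 and 95 to 336 on days 1 to 4; without RANKL day 1 replicate 2 the day 3 count was 1188 and the day 4 count 336. With the replicate number as a block, the counts were 1052, 635, 712 and 216 on days 1 to 4, and among hormone genes Gcg on day 3 (limma adjusted p = 0.0477) and Sct on day 4 against day 1 (0.0384) passed as well. It changed no other hormone gene call. The filter on dim genes removed Rfx6 and Scgn, which were not retested there. The causes of these other changes were not tested, and 3 arrays a group limit what small changes can be seen.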
